A study of Populus deltoides with 12 samples.

Results

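The genes named *PdeANS1* to *PdeANS6* are the 6 poplar genes that the study listed as anthocyanidin synthase (*ANS*) genes, out of 46170 genes with a value in every library. They were taken by their identifiers from the study's list of structural genes. The study had put genes on this list for being differentially expressed in these same libraries, so that the number of them called below is not independent evidence. RNA-seq was performed on 12 libraries of *Populus deltoides* leaves, with 3 biological replicates in each of 4 groups, all of genotype WT and without a treatment in the labels. F_G and F_P were green and purple leaves of the cultivar 'Zhongshanyuan' (ZSY), G was green leaves of L2025, and P was purple leaves of 'Quanhong' (QHP). All were fully expanded leaves of field-grown seedlings that were 2 years old. The methods give the position of the leaves on the plant for P and G, but not for F_G and F_P. Because P and G came from different cultivars, leaf color and cultivar cannot be told apart in P vs. G, and whether the ZSY leaves of both colors came from the same plants is not stated in the labels or the methods.

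Anthocyanins are the red to purple pigments of leaves, flowers, and fruits. In their pathway, chalcone synthase (CHS) makes the flavonoid skeleton, hydroxylases (F3H, F3'H, F3'5'H) decorate it, and dihydroflavonol reductase (DFR) yields colorless leucoanthocyanidins. Anthocyanidin synthase oxidizes these to the colored anthocyanidins, and the glucosyltransferase UFGT attaches a sugar that makes them stable for storage in the vacuole. Flavonol synthase (FLS) draws on the same intermediates for colorless flavonols. ANS, F3H, and FLS belong to the oxoglutarate- and iron-dependent dioxygenases, whereas UFGT belongs to the glycosyltransferases.

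The only sequences of these genes used here are the qRT-PCR primers that the study designed for *PdeANS3*, shown because this was the copy with the highest level in purple leaves. They are given 5′ to 3′, and no capitals are used.
*PdeANS3* forward: ctccaccagaccctcttaaatc
*PdeANS3* reverse: accacccacaagaacctaac
The forward primer has 22 bases, 11 of them G or C, and the reverse primer has 20 bases, 10 of them G or C. Their position within the gene was not determined, since no genome sequence was used.

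The 6 genes lay on 5 chromosomes of the deposited annotation, all on the minus strand, and none overlapped another annotated gene. The build of this annotation is not named in it. *PdeANS1* (Podel.04G076900.v2.1, chromosome 4, 6853032 to 6854462) and *PdeANS2* (Podel.04G077100.v2.1, chromosome 4, 6859499 to 6860929) each consisted of 1 exon of 1431 bases that was coding from end to end (476 codons before the stop). *PdeANS3* (Podel.15G029700.v2.1, chromosome 15, 2519190 to 2520712) had 1 exon of 1523 bases, of which 1434 were coding (477 codons) and 89 untranslated. *PdeANS6* (Podel.09G138600.v2.1, chromosome 9, 11089897 to 11091844) also had 1 exon, with 1392 coding bases (463 codons) and 556 untranslated bases. *PdeANS5* (Podel.06G180700.v2.1, chromosome 6, 17942908 to 17945611) had 2 exons separated by an intron of 1059 bases, with 1353 coding bases (450 codons) and 292 untranslated bases. *PdeANS4* (Podel.13G181200.v2.1, chromosome 13, 15942712 to 15946294) was the only copy with 2 annotated transcripts, each of 3 exons. The transcript with the longer coding sequence had 1305 coding bases (434 codons) and introns of 404 and 56 bases. In the other transcript, the middle exon ran on through the shorter intron, and the last exon was untranslated. The deposited values count both *PdeANS4* transcripts as 1 gene over a joint exon length of 2495 bases.

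**Figure D1:**
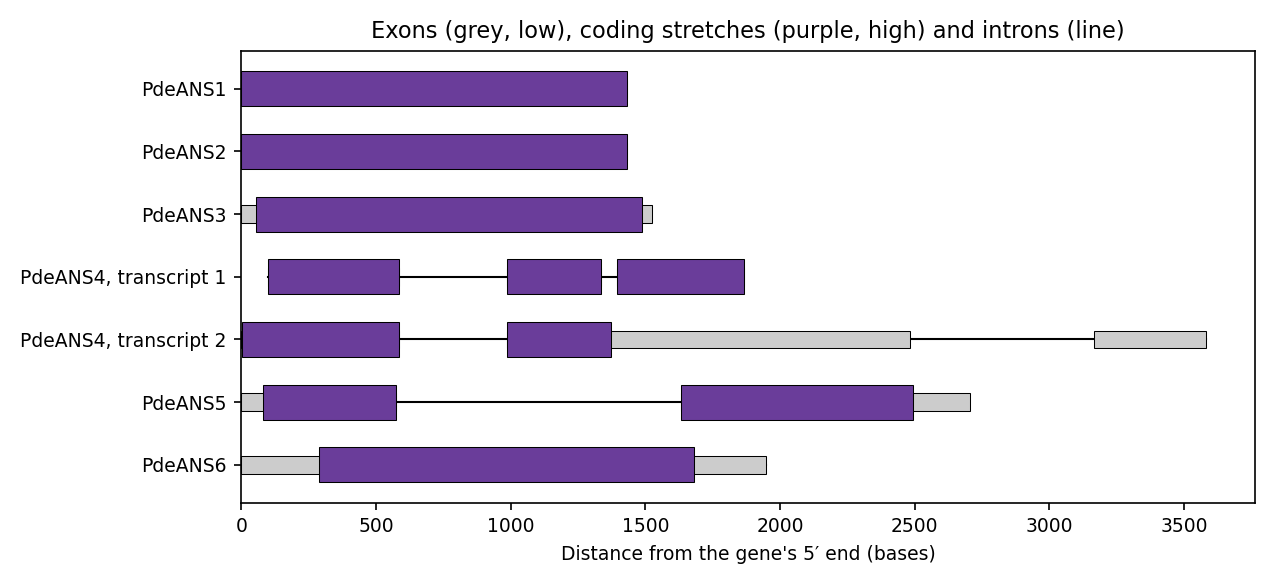
Exons (grey, low boxes), coding stretches (purple, high boxes), and introns (lines) of the annotated transcripts, plotted as the distance in bases from the 5′ end of each gene. *PdeANS1*, *PdeANS2*, *PdeANS3*, and *PdeANS6* have 1 exon each, *PdeANS5* has 2, and both transcripts of *PdeANS4* have 3.

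The name given to these genes was set against their gene models, as the protein sequences were not used here. The coding lengths of the 6 genes were 1305 to 1434 bases (median 1411.5), and 4 of 6 had a single exon. The 11 genes that the study named *UFGT* had 1296 to 1512 coding bases (median 1407), 7 of them lay within the range of the 6 *ANS* genes, and 7 had a single exon. By contrast, the 8 genes named *F3H* or *FLS*, the families to which ANS is related as an enzyme, had 927 to 1290 coding bases, with none (0 of 8) in the *ANS* range and none (0 of 8) with a single exon. Among all annotated genes, 19.7% had a single exon and 4.68% had a coding length in the *ANS* range. All 6 genes were thus longer in coding sequence than every gene named *F3H* or *FLS*. In exon number this holds only in part, since *PdeANS4* and *PdeANS5* have more than 1 exon, as do all 8 *F3H* and *FLS* genes. The enzyme that each of them encodes was not tested, and the names are used here only as the study's labels.

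The depth behind these values was 14543579 to 16628923 fragments per library on annotated genes (median 16000272). The replicates of every group differed by more than sampling noise, so that each library was counted as a separate sample. This does not show that they came from separate plants, which rests on the study's description of them as biological replicates. The leaf label was checked with 20 genes of light-harvesting antenna proteins, which were expressed in all 12 libraries. They come from a list that the study had chosen on these same libraries. The direction of their difference between the groups is therefore not independent evidence. Their summed level was 9252 to 10774 FPKM in F_G against 7288 to 7508 FPKM in F_P, and 20608 to 23518 FPKM in G against 6057 to 6468 FPKM in P, that is, higher in the green than in the purple group of each comparison. Whether this has a part in the results below was not tested. In whole leaves, fewer cells that express a gene and less RNA per cell cannot be told apart.

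The genes differed in which groups were high, and only *PdeANS3* was higher in both purple groups than in both green groups. Levels are given as FPKM, that is, fragments scaled to exon length and library size, so that genes of different length can be set side by side. *PdeANS3* measured 5.96, 10.3, and 9.03 FPKM in the 3 F_G libraries and 9.63, 7.54, and 9.08 FPKM in the 3 G libraries. It measured 46.0, 44.95, and 48.1 FPKM in F_P and 61.8, 53.6, and 59.5 FPKM in P. Every purple library was thus above every green library, and the libraries of F_G and G overlapped. The order of the group means was P (58.3 ± 4.26 FPKM, SD, n = 3), F_P (46.4 ± 1.60), G (8.75 ± 1.08), and F_G (8.43 ± 2.23). Among the genes above 0 in a group, the level of *PdeANS3* exceeded that of 62.4% in F_G and 63.4% in G, against 90.8% in F_P and 93.9% in P.

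*PdeANS5* was high in the green groups. It measured 10.6, 10.6, and 11.6 FPKM in F_G and 13.4, 14.8, and 11.5 FPKM in G. In purple leaves it measured 3.76, 3.45, and 3.36 FPKM in F_P and 6.04, 7.24, and 5.33 FPKM in P. All green libraries lay above all purple libraries, the green groups overlapped, and P lay above F_P. *PdeANS6* shared this order and was close to 0 in purple leaves. It measured 6.60, 3.19, and 3.04 FPKM in F_G and 5.69, 7.28, and 9.60 FPKM in G. In F_P it measured 0.193, 0.0320, and 0 FPKM, which correspond to 6, 1, and 0 fragments, and in P it measured 0.645, 0.628, and 0.740 FPKM, or 22 to 25 fragments. Here too the green groups overlapped, and the purple libraries were all lower, with F_P below P.

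*PdeANS1*, *PdeANS2*, and *PdeANS4* were highest in G and did not follow leaf color. In ZSY, *PdeANS1* measured 5.88, 3.41, and 6.38 FPKM in the green leaves and 7.52, 8.84, and 7.80 FPKM in the purple leaves. It measured 11.8, 12.1, and 9.38 FPKM in L2025 and 3.23, 2.76, and 2.34 FPKM in QHP. The 4 groups did not overlap, in the order G, F_P, F_G, and P. *PdeANS2* had the lowest mean of the 6 genes in both green groups, with 1.00, 1.05, and 1.18 FPKM in green and 2.098, 2.31, and 1.30 FPKM in purple ZSY leaves. In L2025 it measured 3.20, 2.63, and 3.54 FPKM, and in QHP 1.16, 0.933, and 0.766 FPKM. Its order of means was the same as that of *PdeANS1*, but F_G and P overlapped. *PdeANS4* measured 1.70, 0.991, and 2.40 FPKM in green and 3.99, 3.47, and 4.31 FPKM in purple ZSY leaves, 7.72, 7.82, and 7.11 FPKM in L2025, and 4.92, 6.31, and 6.01 FPKM in QHP. Its groups did not overlap, and both ZSY groups were lower than both of the other groups.

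**Figure D2:**
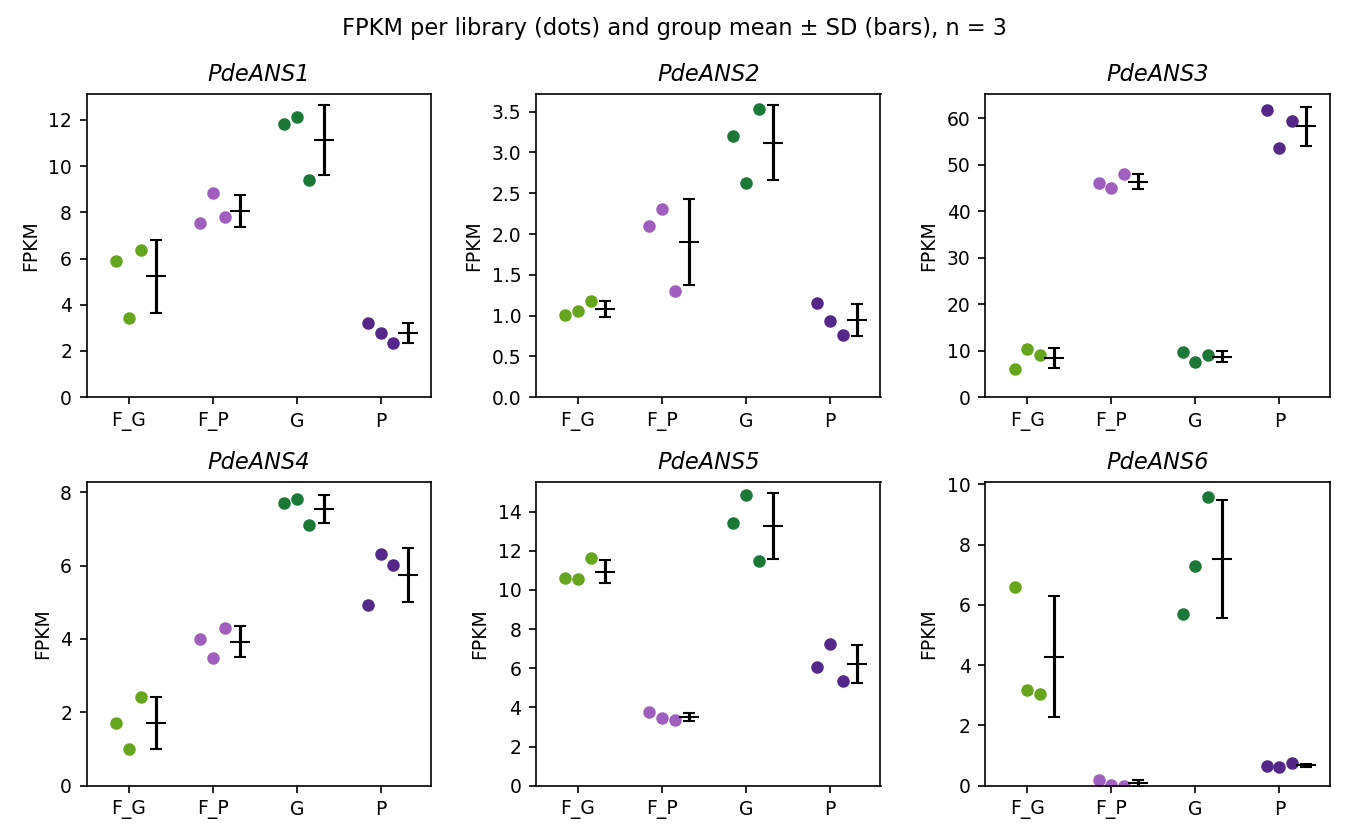
FPKM of each gene in the 12 libraries (dots, in the order of replicates 1 to 3) with the group mean and SD beside them (black, n = 3), for green (F_G, G) and purple (F_P, P) leaves. The vertical scales differ between panels: *PdeANS3* reaches 61.8 FPKM in P, whereas *PdeANS2* stays at or below 3.54 FPKM, and *PdeANS6* is under 1 FPKM in all purple libraries.

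The copy with the highest level differed by leaf color. *PdeANS5* was the highest of the 6 in each of the 6 green libraries, and *PdeANS3* in each of the 6 purple libraries. These ranks take *PdeANS4* over its joint exon length of 2495 bases. Over the 1305 bases of its transcript with the longer coding sequence, its FPKM would be higher. The lead of *PdeANS5* in G, the next copies, and the shares below thus depend on this length. Which transcript the fragments came from was not determined. The lead of *PdeANS5* was narrow, 1.03 to 1.61 times the level of the next copy, which was *PdeANS3* in F_G replicates 2 and 3, *PdeANS6* in F_G replicate 1 and G replicate 3, and *PdeANS1* in G replicates 1 and 2. *PdeANS3* led by 5.09 to 10.2 times, and the next copy was *PdeANS1* in all 3 F_P libraries, *PdeANS5* in P replicates 1 and 2, and *PdeANS4* in P replicate 3.

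As a share of the summed FPKM of the 6 genes, *PdeANS3* held 26.8% ± 8.08 in F_G and 17.1% ± 2.31 in G, but 72.6% ± 1.44 in F_P and 78.03% ± 2.64 in P (SD, n = 3). *PdeANS5* held 34.6% ± 1.17 in F_G and 25.8% ± 2.77 in G, but 5.52% ± 0.374 in F_P and 8.34% ± 1.58 in P. The share of *PdeANS1* was 21.6% in G, 16.3% in F_G, 12.6% in F_P, and 3.72% in P. The sum of the 6 genes was 31.6 ± 2.07 FPKM in F_G against 63.8 ± 0.935 in F_P, and 51.3 ± 1.03 FPKM in G against 74.6 ± 3.20 in P (SD, n = 3). Without *PdeANS3* the order turned: the other 5 genes summed to 23.2 ± 3.52 FPKM in F_G against 17.5 ± 0.665 in F_P, and to 42.6 ± 1.89 FPKM in G against 16.3 ± 1.38 in P. For the share of *PdeANS3*, the sum, and the sum without *PdeANS3*, the purple and the green group of each comparison did not overlap, whereas the share of *PdeANS1* overlapped between F_G and F_P. For the share, the sum, and the sum without *PdeANS3*, in both comparisons, the two-sided exact permutation test gave p = 0.10, the smallest value that 3 against 3 libraries allow, so that the test could not reach 0.05 (6 tests, all with the same p, which adjustment does not change).

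**Figure D3:**
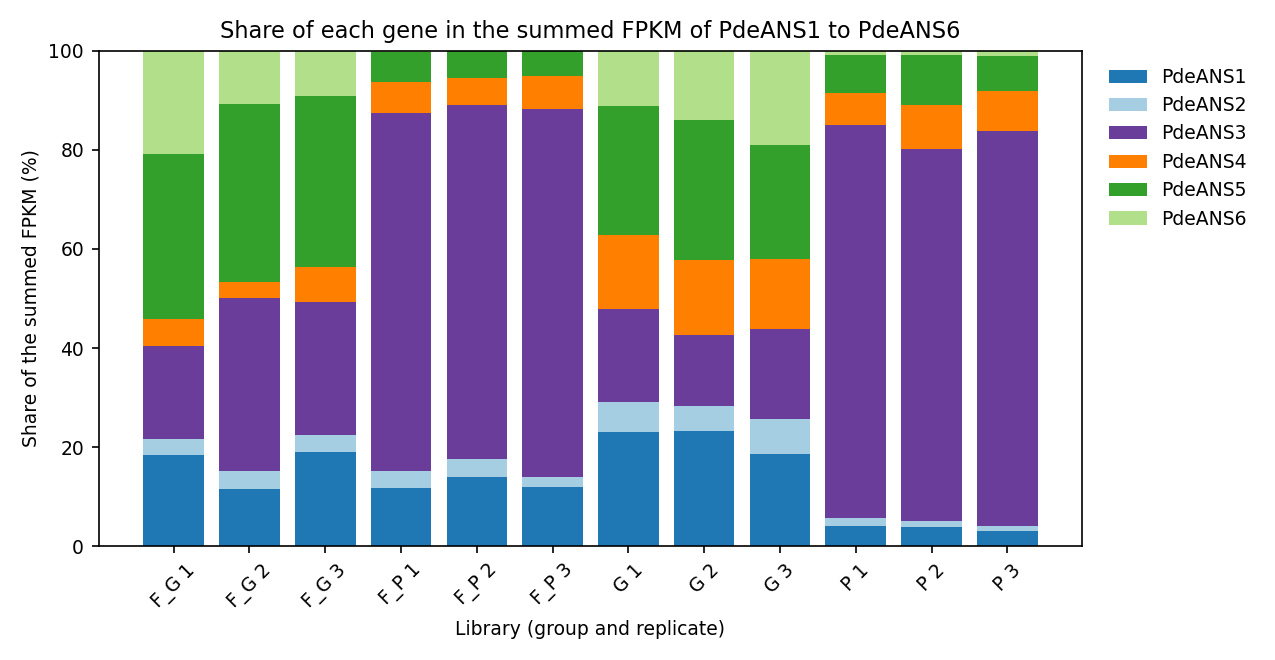
Share of each gene in the summed FPKM of the 6 genes (%), 1 bar per library, ordered by group and replicate. *PdeANS3* (purple) takes 71.3% to 79.7% of each purple bar and 14.4% to 34.9% of each green bar.

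In F_P vs. F_G, purple and green leaves of the same cultivar, 1 of the 6 genes was upregulated and 2 were downregulated. A gene was called differentially expressed where limma's adjusted p over all genes tested was no higher than 0.05 and the log2 fold change was 1 or more in size, on the scale of log2(FPKM + 1), a scale on which changes of weakly expressed genes come out smaller. At this threshold 18.2% of all 25713 genes tested were called, 5.68% as higher and 12.5% as lower in F_P. *PdeANS3* was upregulated, with a mean FPKM 5.50 times that of F_G (log2 fold change 2.36, SE 0.17, adjusted p = 1.60e-05). *PdeANS5* was downregulated, with a mean 3.10 times lower than in F_G (log2 fold change −1.40, SE 0.10, adjusted p = 2.09e-05). *PdeANS6* was downregulated as well (log2 fold change −2.24, SE 0.26, adjusted p = 2.12e-04). Its ratio of means was 57.1, which rests on a total of 7 fragments in F_P against 391 in F_G, and it passed the filter on low values only through the F_G libraries.

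The other 3 genes were not called in F_P vs. F_G, although none of them overlapped between the groups. All 6 members were without overlap here, as were 63.4% of all genes tested. The log2 fold change of *PdeANS4* was 0.90 (SE 0.21, adjusted p = 0.00761), below the minimum of 1, and it reached 1.08 and the call without F_G replicate 3, the highest of the F_G libraries. With a pseudocount of 0.1 in place of 1 it was 1.24 and called. *PdeANS4* passed the filter only through F_P here, since F_G replicate 2 measured 0.991 FPKM. *PdeANS1* had a log2 fold change of 0.57 (SE 0.20, adjusted p = 0.0401). It was 0.34 without F_G replicate 2, and with any 1 of the F_P libraries left out its limma adjusted p was 0.0745 to 0.119. *PdeANS2* had a log2 fold change of 0.46 (SE 0.18, adjusted p = 0.0575). The median log2 fold change over the 6 genes was 0.52, against 0.04 over all genes tested. Among the other 31 structural genes of flavonoid and anthocyanin synthesis in the study's list, which the study had chosen on these libraries, 26 were tested, 11 were higher, and 8 were lower in F_P.

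In P vs. G, purple QHP against green L2025, 1 of the 6 genes was upregulated and 3 were downregulated. Here 26.1% of all 26577 genes tested were called, 9.85% as higher and 16.2% as lower in P. *PdeANS3* was again higher in the purple leaves, by 6.66 times (log2 fold change 2.61, SE 0.10, adjusted p = 8.58e-07). The study's qRT-PCR, relative to an *Actin* gene, also gave higher *PdeANS3* in purple leaves in both comparisons. Its factors were smaller than those by FPKM, and the larger of them was in F_P vs. F_G, not in P vs. G. *PdeANS1* fell 4.00 times in P (log2 fold change −1.68, SE 0.15, adjusted p = 3.96e-05). *PdeANS6* was 11.2 times lower in P (log2 fold change −2.33, SE 0.18, adjusted p = 2.41e-05), and in this comparison it passed the filter only through G. *PdeANS2* was 3.28 times lower (log2 fold change −1.08, SE 0.15, adjusted p = 5.13e-04), but it was under the minimum, at −0.96, when the libraries were scaled to their totals. It too passed the filter only through G, since 1 of the 3 P libraries reached 1 FPKM.

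*PdeANS5* and *PdeANS4* were not called in P vs. G. *PdeANS5* missed the minimum fold change at −0.99 (SE 0.14, adjusted p = 4.93e-04), and without G replicate 3 or without P replicate 2 it was called, at −1.08 and −1.09, as it was with a pseudocount of 0.1 (−1.09) and with voom on recovered fragments (−1.09). *PdeANS4* was 1.31 times lower in P, with a log2 fold change of −0.35 (SE 0.12, limma adjusted p = 0.0357). With library totals it was −0.18 (adjusted p = 0.210). The adjusted p was 0.0528 with median of ratios, 0.0654 with a replicate block, and 0.102 with all 12 libraries in 1 fit. It was 0.0382 with a pseudocount of 0.1, 0.0479 with no filter, and 0.0187 with voom. With 1 library left out it lay between 0.0378 and 0.105. Again, all 6 genes were without overlap between P and G, as were 69.5% of all genes tested. The median log2 fold change was −1.03 over the 6 genes and −0.02 over all genes. Of the other structural genes, 26 were tested, 12 were higher, and 10 were lower in P.

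Whether the purple to green change differed between the pairs was tested with 1 contrast, F_P minus F_G against P minus G, in a fit of all 12 libraries, at an adjusted p of at most 0.05. It differed for 3 of the 6 genes, against 45.4% of all 28339 genes tested (23.9% in the same direction as these 3 and 21.4% in the opposite direction). *PdeANS1* was 1.54 times higher in F_P than in F_G but 4.00 times lower in P than in G, a log2 difference of 2.25 (SE 0.26, adjusted p = 2.46e-05). *PdeANS2* went the same ways, with a difference of 1.54 (SE 0.23, adjusted p = 1.79e-04), and so did *PdeANS4*, with a difference of 1.24 (SE 0.25, adjusted p = 0.00153). In all 3 the change from green to purple was upward in ZSY and downward from L2025 to QHP, while the highest level of each was in G. Of the other structural genes, 9 differed in this direction and 6 in the opposite direction out of 28 tested.

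For *PdeANS3* the difference between the pairs was −0.25 (SE 0.21, adjusted p = 0.365), and it passed the threshold without F_G replicate 1 (−0.45, adjusted p = 0.0224). For *PdeANS5* it was −0.41 (SE 0.17, adjusted p = 0.0643), and it passed with library totals (−0.64, adjusted p = 0.00712), with a pseudocount of 0.1 (−0.52, adjusted p = 0.0434), without G replicate 2 (−0.49), and without P replicate 3 (−0.50). For *PdeANS6* it was 0.09 (SE 0.33, adjusted p = 0.848). This last value has no stable sign, since it was −1.43 with a pseudocount of 0.1 and −2.80 in a fit on recovered fragments, neither of them past the threshold.

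**Figure D4:**
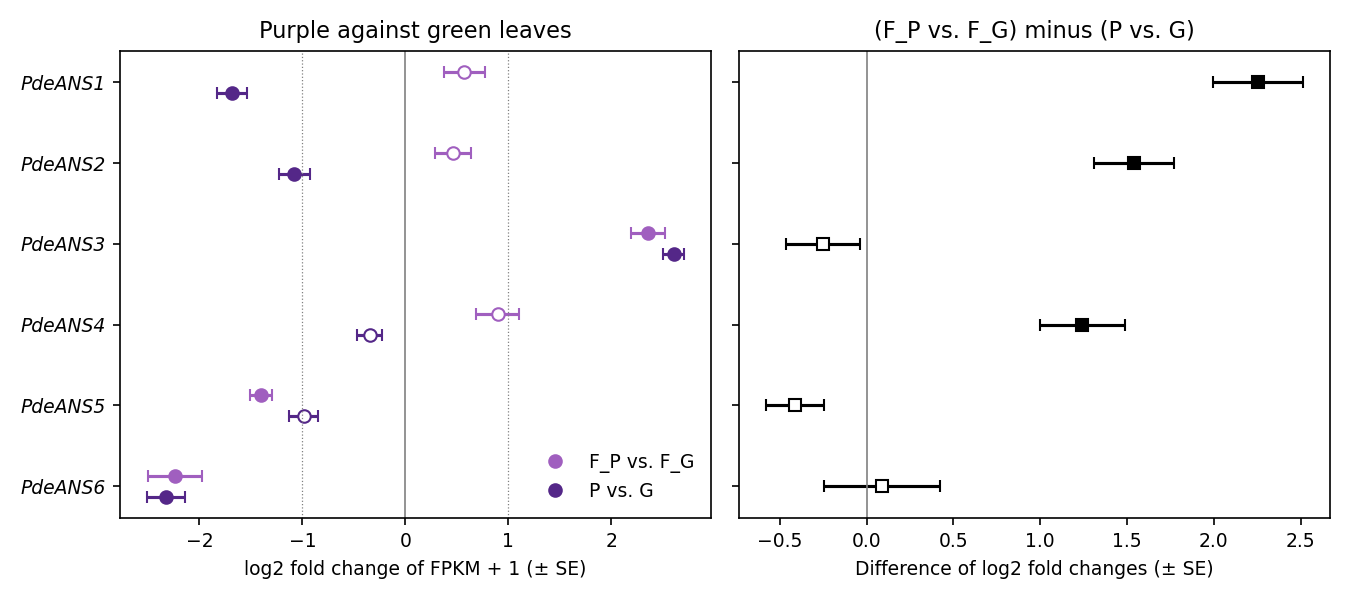
Left, log2 fold change of FPKM + 1 (± SE) in F_P vs. F_G (light) and P vs. G (dark), with filled dots for genes called and dotted lines at the minimum of 1 in either direction. Right, the difference between both fold changes (± SE), filled where the adjusted p was at most 0.05. *PdeANS3* lies to the right and *PdeANS5* and *PdeANS6* to the left in both comparisons, whereas *PdeANS1*, *PdeANS2*, and *PdeANS4* lie on opposite sides and differ between them.

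The groups of like color were also set against each other. These comparisons share their libraries with those above and are no further evidence for them. Between the purple groups, 1 of 5 tested genes was called in F_P vs. P, against 10.6% of all 24752 genes tested (5.05% higher and 5.53% lower in F_P). This was *PdeANS1*, 2.90 times higher in F_P (log2 fold change 1.27, SE 0.12, adjusted p = 8.72e-05). *PdeANS3* was 1.26 times higher in P, with a log2 fold change of −0.32 for F_P vs. P (adjusted p = 0.00331), below the minimum of 1. *PdeANS5*, at −0.66 (adjusted p = 0.00263), *PdeANS4*, at −0.45 (adjusted p = 0.0157), and *PdeANS2*, at 0.56 (adjusted p = 0.0297), were below it too. Of these, *PdeANS2* passed the filter on low values only through F_P. *PdeANS6* was left out by the filter on low values, at 0 to 6 fragments per library in F_P and 22 to 25 in P. All 6 genes were without overlap between F_P and P, as were 61.7% of the genes tested.

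Between the green groups, 1 of 6 genes was called in F_G vs. G, against 19.9% of all 26789 genes tested (9.35% higher and 10.5% lower in F_G). This was *PdeANS4*, which was 4.45 times lower in F_G (log2 fold change −1.70, SE 0.21, adjusted p = 3.40e-04). It passed the filter on low values only through G, since F_G replicate 2 measured 0.991 FPKM. *PdeANS1* (−0.99, adjusted p = 0.00580) and *PdeANS2* (−0.98, adjusted p = 0.00173) lay just under the minimum. Both were called with a pseudocount of 0.1, at −1.12 and −1.44. *PdeANS1* was called also without F_G replicate 1 (−1.08), without F_G replicate 3 (−1.13), or without G replicate 3 (−1.10), and *PdeANS2* without F_G replicate 3 (−1.02) or without G replicate 2 (−1.07). *PdeANS6* (−0.73, adjusted p = 0.0619) was called without F_G replicate 1, the highest of the F_G libraries (−1.02). *PdeANS3* (−0.07, adjusted p = 0.786) and *PdeANS5* (−0.25, adjusted p = 0.120) were not called under any alternative. Of the 6 genes, 3 were without overlap between F_G and G, against 58.2% of the genes tested.

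*PdeANS1* and *PdeANS2* are neighbors in the annotation. Their ends were 5036 bases apart, on the same strand, with 1 gene between them (Podel.04G077000, 1 exon, 1071 coding bases), which was listed at 0 FPKM in all 12 libraries. The nearest genes outside the pair, Podel.04G076800 at a distance of 801 bases and Podel.04G077200 at 11281 bases, have 2 exons each and were also listed at 0 FPKM in all 12 libraries. Thus, within this stretch of 5 genes, only the 2 named *PdeANS* had fragments.

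The members of the pair have the same coding length and the same order of group means, but not the same level. *PdeANS1* was 2.65 to 6.0 times as high as *PdeANS2* in every one of the 12 libraries. The mean ratio was 4.83 ± 1.40 in green and 4.47 ± 1.33 in purple ZSY leaves, 3.66 ± 0.985 in L2025, and 2.93 ± 0.131 in QHP (SD, n = 3), and the groups' ranges of this ratio overlapped except that P lay wholly below F_G and F_P. These ratios rest on 58 to 255 fragments of *PdeANS1* and 19 to 75 fragments of *PdeANS2* per library. Because the sequence identity of the pair is not known here and the handling of reads that map to both copies is not stated, the split of fragments between *PdeANS1* and *PdeANS2* is uncertain, which bears on every value of either gene.

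**Figure D5:**
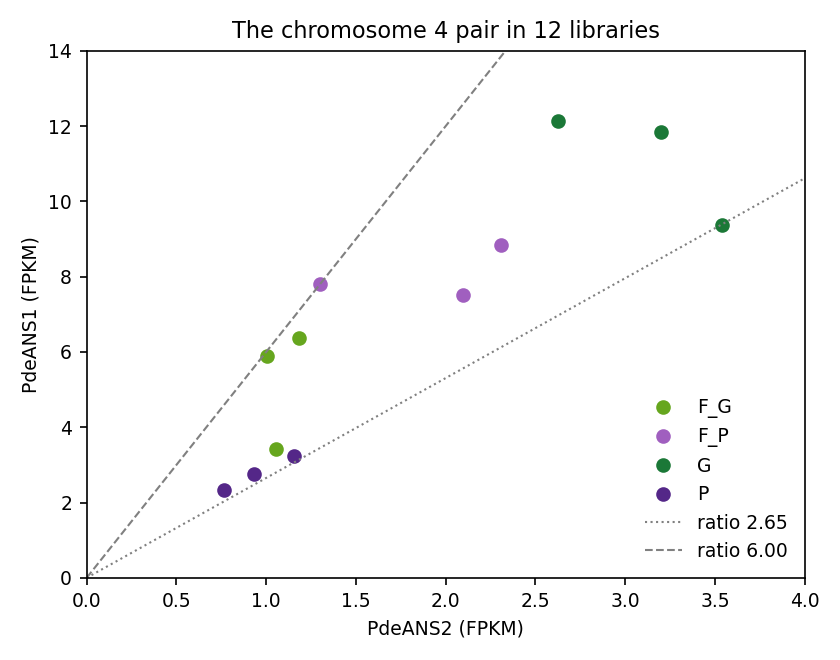
FPKM of *PdeANS1* against FPKM of *PdeANS2*, 1 dot per library, colored by group. The grey lines mark the lowest (2.65) and the highest (6.0) ratio of the pair over the 12 libraries, and the G libraries lie highest and the P libraries lowest.

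The genes with the most similar pattern were looked up among the other structural genes of the study's list and its regulators *PdeMYB1* and *PdeMYB2*, by Pearson's r of log2(FPKM + 1) over the 12 libraries. These values only describe the pattern, since the points are 4 groups of 3 replicates that share their libraries. *PdeANS3* was most like *PdeCHS2* (r = 0.96), *PdeF3'H1* (r = 0.95), and *PdeCHS3* (r = 0.94), that is, genes named for chalcone synthase and for a hydroxylase of the flavonoid ring. Its lowest r was with *PdeMYB2* (−0.99), a gene that was singled out after its value was seen. *PdeANS5* was most like *PdeUFGT10* (r = 0.98), *PdeANS1* most like *PdeUFGT1* (r = 0.91), *PdeANS6* most like *PdeF3'H2* (r = 0.94), and *PdeANS4* most like *PdeFLS2* (r = 0.93).

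Among the 6 genes themselves, *PdeANS5* and *PdeANS6* had the most similar pattern (r = 0.93), followed by the chromosome 4 pair (r = 0.85). *PdeANS2* was more like *PdeANS1* than like any other gene of the list. *PdeANS3* ran opposite to *PdeANS6* (r = −0.92) and to *PdeANS5* (r = −0.87), and *PdeANS4* was not close to any other copy, with r between 0.04 and 0.50.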

How the data were processed

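The authors purified leaf mRNA, prepared libraries with the NEBNext Ultra kit, mapped the reads with Hisat2, and assembled transcripts with StringTie; versions and strand marking are not stated. The authors deposited FPKM values for 46170 genes in each of 12 libraries, and the authors' own comparisons were made with the DESeq R package. Whole fragments (within 0.02) were recovered from the FPKM values and the exon lengths for 100% of the values checked. The library sizes behind the deposited values equal a scaling by median of ratios over all 12 libraries; as an alternative, this scaling was also computed within the 6 libraries of each comparison. Of the genes, 1317 lie outside the annotation. The reference table of 31722 genes matched 0 identifiers, so names came from the study's supplement.

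Groups and replicates followed the sample labels. FPKM + 1 was log2 transformed, genes that reached 1 FPKM in 3 or more libraries were kept, and limma 3.58.1 (trend, R 4.3.3) was fitted to the 6 libraries of each comparison, or to all 12 for the difference between comparisons, with Benjamini-Hochberg adjustment over all genes. The threshold was an adjusted p no higher than 0.05 with a log2 fold change of 1 or more in size (no minimum for the difference). The procedure was also run on simulated data, where the planted changes were larger than the minimum and lay in genes with many fragments. That run therefore says nothing on genes near the minimum fold change or with few fragments. Shares were compared by exact permutation with scipy 1.17.1; pandas 2.3.3 and numpy 2.4.6 in Python 3.11.15 handled the tables. Alternatives were a pseudocount of 0.1, no filter, library totals, median of ratios, a replicate block, all libraries in 1 fit, no minimum fold change, voom on the fragments, and each library left out in turn (with the genes tested kept as they were).

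The genes named are the 6 members, the gene most like each of them (3 for *PdeANS3*), and the neighbors of the chromosome 4 pair. The regulators *PdeMYB1* and *PdeMYB2* are named as part of the genes searched. The r of *PdeMYB2* with *PdeANS3* is given outside this rule, as it was singled out after its value was seen. The members come from a list that the study chose on these libraries, and the members and lists were chosen with earlier results of these data known.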

Additional observations from a re-analysis of the deposited data

Results flagged for a closer look

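For 3 of the 6 genes the change between purple and green leaves differed between the pairs by the test of the difference itself, a share close to that over all genes tested (45.4%), so that it does not set these genes apart. *PdeANS1* differed by 2.25, *PdeANS2* by 1.54, and *PdeANS4* by 1.24 on the log2 scale of F_P minus F_G against P minus G. Each of the 3 was higher in all F_P than in all F_G libraries and lower in all P than in all G libraries, while 63.4% and 69.5% of all genes tested were without overlap in these comparisons. Since P and G differ in cultivar as well as in color, a difference between the pairs and a difference between cultivars cannot be told apart. No group has the 4 or more samples needed to single out 1 library as far from the others. Still, the fragments of G replicates 1 and 2 were closer to each other than to those of G replicate 3. The mean chi-square per gene was 3.20 between G replicates 1 and 2. It was 10.43 between G replicates 1 and 3, and 10.36 between G replicates 2 and 3. The cause was not tested.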

How the results depend on the processing

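Of the values for single genes under the alternatives, 389 kept their direction and whether the gene was called, whatever their adjusted p, and 32 came to be called. Some of these 32 are from the alternative with no minimum fold change, where the value stays the same and only the threshold is dropped. Many of the 389 could not move much either. By design, the fold change is the same with no minimum, no filter, a replicate block, or all libraries in 1 fit. At most the adjusted p could change there. For the difference, median of ratios also leaves the values as they are. The 389 are therefore no measure of robustness. The call was lost for 1 (*PdeANS2* in P vs. G with library totals), and 8 changed sign. With no minimum fold change, 5 of the 6 genes were called in F_P vs. F_G, 6 of 6 in P vs. G, 5 of the 5 tested in F_P vs. P, and 3 of 6 in F_G vs. G. The other structural genes called were then 22 in F_P vs. P and 19 in F_G vs. G. All genes called were 14301 of 25713 tested (7373 higher, 6928 lower) in F_P vs. F_G. They were 17154 of 26577 (8142 higher, 9012 lower) in P vs. G, 13091 of 24752 in F_P vs. P, and 13133 of 26789 in F_G vs. G. In F_G vs. G, 3 of the 6 genes were called with a pseudocount of 0.1 and 3 with voom, while the calls over all genes went from 5332 to 6454 and 6348. As a share of fragments, which is not per length, *PdeANS3* held 70.2% in F_P and 73.9% in P. The difference between the pairs for *PdeANS6* changed sign with a pseudocount of 0.1 (−1.43), library totals (−0.073), and voom (−2.80), and over the libraries left out it ranged from −0.080 to 0.38. The value of *PdeANS3* in F_G vs. G was 0.048 with library totals and ranged from −0.22 to 0.13 over the libraries left out. The cause of these changes was not tested.

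When 1 library was left out, the number of the 6 genes called ranged from 3 to 4 in F_P vs. F_G, 4 to 5 in P vs. G, 1 to 3 in F_G vs. G, and 3 to 4 for the difference, and it was 1 each time in F_P vs. P. All genes called were then 4627 to 4952 of 25713 in F_P vs. F_G and 6821 to 7031 of 26577 in P vs. G. In F_G vs. G they were 5238 to 5447 of 26789, and in F_P vs. P 2590 to 2738 of 24752. For the difference they were 11451 to 13283 of 28339. Library totals moved the median log2 fold change of all genes in P vs. G from −0.02 to 0.15 and turned the split of calls from 2618 higher and 4313 lower to 3429 higher and 3668 lower. For F_G vs. G the split moved from 2506 higher and 2826 lower to 2897 higher and 2385 lower, and for the difference from 6784 higher and 6073 lower to 4609 higher and 8753 lower. Median of ratios within a comparison changed no call of the 6 genes. Whether the replicate number paired the samples was checked by correlating, across genes, the deviations of each library from its group mean. For same-numbered libraries these deviations correlated at −0.02 to 0.01 in F_P vs. F_G and −0.13 to 0.11 in P vs. G, so that no pairing by number was seen. With the replicate number as a block, 3 of the 6 genes were called in F_P vs. F_G, 4 in P vs. G, 1 in F_P vs. P, 1 in F_G vs. G, and 3 for the difference, and 4720, 6948, 2625, 5310, and 12147 of all genes, in the same order. Few fragments limit *PdeANS6* in both purple groups (0 to 6 per library in F_P, 22 to 25 in P) and *PdeANS2* in P (19 to 29).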
